A study of Mus musculus with 4 samples.

Results

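The genes that write, copy and remove cytosine methylation were examined at their own loci: Dnmt1, Dnmt3a, Dnmt3b, Dnmt3l, Uhrf1, Tet1, Tet2, Tet3 and Tdg. These 9 genes were chosen by function, with earlier results of these data known, from 17273 protein-coding genes with a listed transcription start. For each gene, the CpGs from 5 kb before to 5 kb after the RefSeq gene record were taken and their reads were pooled per library in 1 kb bins. Of the 622 bins with a listed CpG, 584 had at least 3 CpGs and 10 reads in every library. The data are whole-genome bisulfite sequencing of mouse embryonic stem cells carrying floxed Ogt alleles (Ogt fl/fl), with 2 libraries per group. Ogt encodes the O-GlcNAc transferase, which attaches N-acetylglucosamine to nuclear and cytosolic proteins. Inducible knockout cells (Ogt iKO) were kept in 4-hydroxytamoxifen (4-OHT) for 6 days and sorted as YFP-positive. Control cells of the floxed line spent 6 days without 4-OHT, and per the labels feeder fibroblasts were removed by sorting. The labels name CD90.2 (Thy1) for the stem cells and CD326 (Epcam) for the feeders, the reverse of the usual use of these markers, and which cells were kept was checked only at promoters. Both groups thus carried the floxed alleles, and knockout, drug and reporter sort coincided and cannot be told apart. The labels do not say whether libraries of a group came from separate cultures, so every p-value measures only the spread between these libraries, which may be technical.

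DNA methyltransferases place a methyl group on cytosine, mostly at CpG dinucleotides. DNMT3A and DNMT3B methylate new sites, with DNMT3L as a catalytically inactive partner, while UHRF1 recognises hemimethylated DNA after replication and brings in DNMT1 to copy the pattern. TET1, TET2 and TET3 oxidise 5-methylcytosine to 5-hydroxymethylcytosine and further products, and the glycosylase TDG excises the later products so that base excision repair restores cytosine. TET proteins are known partners of OGT. Bisulfite sequencing reads 5-methylcytosine and 5-hydroxymethylcytosine alike as unconverted, so each level given here is the percentage of reads over CpGs that carried either mark. The comparison asks how cytosine methylation differed between Ogt iKO and control cells, here at the genes of the methylation machinery itself.

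The libraries held 64273609 to 79929994 reads over CpGs, at a mean depth of 3.36 to 4.05 reads per listed CpG. A read is counted at every CpG it covers, so read numbers over a window are CpG calls from fewer molecules, and intervals and limits computed from them are narrower than independent molecules would give. The level over the autosomes and X was 65.5% and 63.3% in iKO cells and 70.3% and 73.8% in controls (replicate 1 first, here and throughout), so values for the 9 genes are given beside those of all genes. On mitochondrial DNA, 0.253% to 0.307% of reads were unconverted. The ratio of read depth over Ogt to that over other CpGs of its chromosome was 1.25 and 1.20 in iKO cells and 1.28 and 1.19 in controls. These ranges overlapped, and a deletion within the gene was not resolved by this measure. Depth over X was 50.5% to 51.2% of that over the autosomes in the 4 libraries, while the labels give Ogt, an X-linked gene, as fl/fl, and the number of X copies was not tested. Among stem cell genes, the promoters of Pou5f1, Tdgf1, Nanog and Zfp42 were at 0% to 14.3% in all 4 libraries, and the outermost listed start of Esrrb was at 54.1% and 63.3% in iKO and 64.3% and 71.6% in controls. Pou5f1, Nanog and Zfp42 were also lower in both iKO libraries than in both controls. Among fibroblast genes, Col3a1, with 9 CpGs, was at 56.3% and 59.4% in iKO and 77.1% and 92.6% in controls, and the CpG-rich promoters of Col1a2, Twist2 and Prrx1 were at 0.37% to 11.4%. Dppa5a, Thy1 and Col1a1 had no tested promoter, so methylation gave only a partial check of the labelled cell type, and remaining feeder DNA was not measured.

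To see which starts could carry methylation, the sequences around them were examined first. The RefSeq promoter table of GRCm38.p6 (mm10) lists 16 starts for the 9 genes, numbered here in the direction of transcription. Each is represented by 300 bases from 250 before it to 50 after it. These starts do not reach every 5′ end: the gene records of Tet3 and Dnmt3a begin 15530 and 5421 bp upstream of the outermost listed start. There, CpGs inside the record and over 2 kb from that start count as gene body below. The CpGs per sequence ranged from 2 to 57, against a median of 13 over 21044 listed starts of protein-coding genes. Dnmt1 and Dnmt3l each had a methylated outermost start and a start within the gene at low methylation, and their sequences are shown for that contrast, with CpG dinucleotides in capitals.
Dnmt1 start 1: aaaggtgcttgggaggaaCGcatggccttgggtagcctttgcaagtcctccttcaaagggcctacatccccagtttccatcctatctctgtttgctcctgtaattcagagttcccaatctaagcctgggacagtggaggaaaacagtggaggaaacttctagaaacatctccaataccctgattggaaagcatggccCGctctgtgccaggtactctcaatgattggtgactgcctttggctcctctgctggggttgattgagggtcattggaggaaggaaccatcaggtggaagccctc
Dnmt1 start 3: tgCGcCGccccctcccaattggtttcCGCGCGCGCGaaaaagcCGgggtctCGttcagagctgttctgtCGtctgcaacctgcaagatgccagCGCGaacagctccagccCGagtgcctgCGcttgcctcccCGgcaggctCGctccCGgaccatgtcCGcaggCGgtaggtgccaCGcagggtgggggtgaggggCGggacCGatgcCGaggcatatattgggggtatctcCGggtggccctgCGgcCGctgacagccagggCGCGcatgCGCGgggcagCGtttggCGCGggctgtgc
Dnmt3l start 1: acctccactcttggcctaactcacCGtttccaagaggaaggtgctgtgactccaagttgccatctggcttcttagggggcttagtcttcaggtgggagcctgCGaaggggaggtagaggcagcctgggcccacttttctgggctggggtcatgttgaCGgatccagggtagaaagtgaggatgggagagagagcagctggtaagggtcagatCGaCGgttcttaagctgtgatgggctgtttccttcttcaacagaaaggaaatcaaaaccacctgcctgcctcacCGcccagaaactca
Dnmt3l start 2: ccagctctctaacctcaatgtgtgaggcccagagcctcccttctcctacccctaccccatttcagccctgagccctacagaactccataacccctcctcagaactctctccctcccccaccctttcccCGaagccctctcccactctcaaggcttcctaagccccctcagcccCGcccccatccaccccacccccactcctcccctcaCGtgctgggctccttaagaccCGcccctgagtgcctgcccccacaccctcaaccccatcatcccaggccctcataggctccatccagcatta

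The Dnmt1 sequences lie on the minus strand at chr9:20959839-20960138 and chr9:20952574-20952873, and the Dnmt3l sequences on the plus strand at chr10:78042037-78042336 and chr10:78049592-78049891 (GRCm38.p6). Dnmt1 start 1 has 2 CpGs and 11.1% of all listed starts have fewer, whereas start 3, 7265 bp further into the gene, has 33. Within these 300 bases, 12 of 16 iKO reads and 19 of 19 control reads over the CpGs of Dnmt1 start 1 were methylated, against 0 of 184 and 0 of 141 at start 3. The Dnmt3l pair differed in methylation but not in the same way in sequence, with 6 CpGs at start 1 and 4 at start 2. There, 14 of 32 iKO reads and 22 of 38 control reads were methylated at start 1, against 0 of 26 and 1 of 20 at start 2. An oocyte-specific Dnmt1 transcript is known to begin upstream of the somatic one, and the RefSeq record of Dnmt3l overlaps the neighbouring gene Aire at its 5′ end.

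Tet1 and Tet2 are shown as the TET genes with the fewest and the most CpGs at their start, 17 and 57, and Tdg, with 26, as the gene with the largest decrease in its body.
Tet1 start: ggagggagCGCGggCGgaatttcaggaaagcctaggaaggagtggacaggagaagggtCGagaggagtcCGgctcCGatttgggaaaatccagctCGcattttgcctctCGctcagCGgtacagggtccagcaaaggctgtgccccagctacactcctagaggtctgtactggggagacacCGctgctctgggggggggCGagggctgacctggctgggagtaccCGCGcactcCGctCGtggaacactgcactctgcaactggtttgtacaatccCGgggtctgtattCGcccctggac
Tet2 start: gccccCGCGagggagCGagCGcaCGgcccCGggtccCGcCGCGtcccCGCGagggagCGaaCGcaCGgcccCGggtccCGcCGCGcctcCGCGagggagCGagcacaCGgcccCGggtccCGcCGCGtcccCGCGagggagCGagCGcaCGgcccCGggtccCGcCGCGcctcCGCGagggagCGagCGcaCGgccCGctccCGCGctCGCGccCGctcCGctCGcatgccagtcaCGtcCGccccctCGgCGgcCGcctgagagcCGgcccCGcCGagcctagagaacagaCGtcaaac
Tdg start: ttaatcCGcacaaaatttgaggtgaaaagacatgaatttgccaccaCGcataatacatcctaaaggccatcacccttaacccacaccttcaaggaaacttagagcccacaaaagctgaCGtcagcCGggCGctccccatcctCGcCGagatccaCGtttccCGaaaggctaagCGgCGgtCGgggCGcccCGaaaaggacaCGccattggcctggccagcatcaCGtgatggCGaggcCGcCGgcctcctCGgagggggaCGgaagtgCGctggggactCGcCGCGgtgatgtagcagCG

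They lie at chr10:62887275-62887574 (minus strand), chr3:133544341-133544640 (minus strand) and chr10:82629588-82629887 (plus strand) in GRCm38.p6. Of all listed starts, 99.8% have fewer CpGs than Tet2. Methylated reads in these windows numbered 0 of 66 in iKO and 2 of 69 in control cells at Tet1, 0 of 93 and 0 of 199 at Tet2, and 1 of 149 and 0 of 100 at Tdg. The GC box GGGCGG, searched on both strands, was found in 12 of the 16 member sequences and in 46.7% of all 21044. The E box CACGTG was found in 3 of 16, those of Dnmt3a start 3, Dnmt3l start 2 and Tdg, and in 7.91% of all. TATAAA was found in 0 of 16 and in 12.7% of all. The motifs share no sequence with each other, the first 2 hold a CpG themselves, and a match is only a match of letters in this window.

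The promoter comparison used a wider window, 1000 bp before to 500 bp after each start, in which the members had 40 to 330 reads per library. If the calls were independent, a level of 0% there would allow up to 3 of the total, which is 0.993% to 3.45%; the true limits are wider. Most starts were at low methylation in both groups: 13 of 16 were under 20% in all 4 libraries, and the 3 others were Dnmt1 start 1 and Dnmt3l starts 1 and 3. In the quasi-binomial model with limma-moderated dispersion, 0 of the 16 starts were called at an adjusted p under 0.05 (lowest adjusted p = 0.519), as were 0.0% of all 19777 tested starts. On simulated data, 100 of 16110 windows were changed by 10 points and 100 by 20, and the promoter test called none of them. Those windows were few and at higher levels than most member starts, so the simulation does not give the power for these starts. A count of 0 here does not show that levels were alike. At an unadjusted p under 0.05 there were 3 of 16, against 9.56% of all starts. With the outermost start of each gene only, 0 of 9 members and 0 of 16110 genes were called, by the model, by edgeR's quasi-likelihood test and by limma on logit levels alike, and 1 of 9 members had an unadjusted p under 0.05, against 9.31% of genes. Both iKO libraries were below both controls at 10 of 16 starts, against 33.9% of all starts, and above both controls at 1 of 16, against 7.46%. Windows of neighbouring starts of a gene overlap and share reads, so these are not 16 separate measurements.

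Among the maintenance genes, Dnmt1 start 1 was the only start of the 9 genes above 80% in every library. Its level was 80.3% and 81.5% in iKO and 87.8% and 90.0% in control libraries, a difference of -7.97 points (pooled SD 1.26, n = 2 each), and the groups did not overlap. Dnmt1 start 2 was at 2.73% and 3.70% in iKO against 13.5% and 5.56% in controls, and start 3 at 0.45% and 1.95% against 4.12% and 3.62%. Both internal starts thus lay lower in the iKO libraries without a call, and the controls differed at start 2 by more than the iKO libraries did. Uhrf1 start 2 ran the other way, at 4.00% and 1.24% in iKO against 0% and 0.495% in controls, where control replicate 1 had 0 of 302 calls. Its unadjusted p was 0.039 and its adjusted p 0.519 in the limma-moderated model over all starts. At Uhrf1 start 1, 976 bp upstream, the groups overlapped (16.2% and 3.95% against 7.05% and 3.13%), and iKO replicate 1 alone was high.

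Among the de novo genes, the CpG-dense start 1 of Dnmt3a was at 0% and 0.352% in iKO and 0.862% and 0.623% in control libraries, and the internal start 3, 84764 bp downstream, was at 2.09% and 1.37% against 2.14% and 3.61%. Both starts were under 4% in every library. Dnmt3b stood at 4.56% and 4.93% in iKO against 17.7% and 3.09% in controls, so control replicate 1 was far above the others. Without control replicate 1 the difference at Dnmt3b turned from -5.67 to 1.65 points. Dnmt3l start 1 was at 41.1% and 51.6% in iKO and 59.4% and 67.7% in controls, which is the largest promoter difference of the 9 genes, -17.2 points (pooled SD 6.73, n = 2 each), with groups apart. Its internal start 2 was at 0% and 1.35% against 5.21% and 7.75% (unadjusted p = 0.0209, limma-moderated model), and start 3 overlapped between groups, at 32.2% and 26.9% against 41.4% and 29.2%.

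Among the demethylation genes, Tet1 had the lowest unadjusted p of all member starts, 0.00883 in the limma-moderated model (adjusted p = 0.519). Its level was 0% and 0.581% in iKO against 4.65% and 5.30% in control libraries, that is 0 of 225 and 1 of 172 calls against 6 of 129 and 8 of 151. With independent calls the count of 0 would allow up to 1.33%, and the 95% Wilson intervals of the controls would be 2.15% to 9.78% and 2.71% to 10.1%, for counting error only. The 1 kb bin over the Tet1 start was at 0% and 0% against 2.02% and 4.21%. The window also reaches into the next bin upstream, which was at 15.0% and 10.7% against 29.7% and 32.4%. The Tet2 start had 0 of 254 and 0 of 191 methylated calls in iKO, and levels of 0.303% and 0.794% in controls. Tet3 was at 9.31% and 5.69% against 16.8% and 11.8%, with groups apart, and Tdg at 1.01% and 0% against 1.58% and 0%, with groups overlapping. The Tet3 window pools 2 unlike stretches that the libraries covered in unlike proportion. The 1 kb bins that it crosses differed by -1.36 points and, with groups overlapping, by -4.45 points. They had 185 and 85 reads in iKO replicate 1 and 65 and 63 in control replicate 1. The differences at Tet2 and Tdg are not detectable at this depth.

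**Figure D1:**
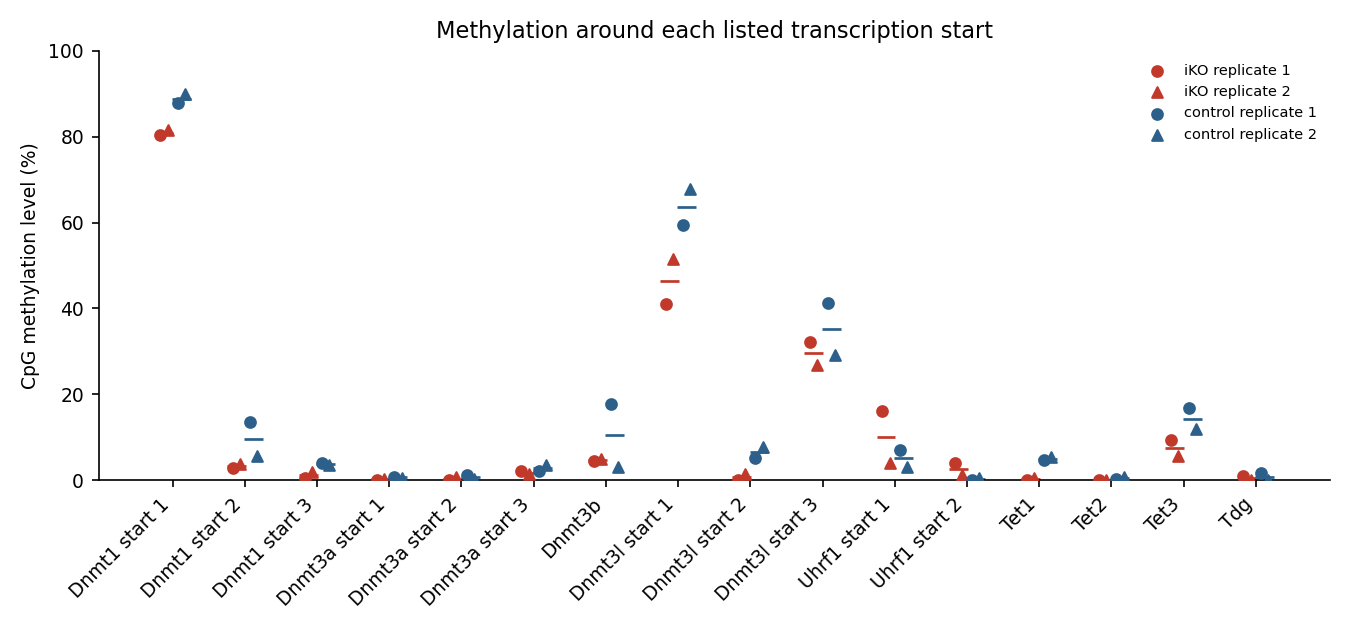
CpG methylation level (%, vertical axis) from 1000 bp before to 500 bp after each of the 16 listed starts (horizontal axis), with a point per library (iKO red, control blue, circles replicate 1, triangles replicate 2) and a bar at each group mean. Dnmt1 start 1 and Dnmt3l starts 1 and 3 stand above the other 13 starts, which lie under 20% in every library.

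Gene bodies were compared next, as the CpGs inside the gene record and over 2 kb from the outermost listed start, with 674 to 5268 reads per gene and library. Internal starts of Dnmt1, Dnmt3a and Dnmt3l that lie further in thus count as body. All 9 bodies were less methylated in the iKO libraries, both iKO libraries lay below both controls in each, and all 9 fell at an adjusted p under 0.05 in the quasi-binomial model with limma-moderated dispersion. This has to be read against all genes, of which 51.2% of 13869 bodies were called (7098 lower and 1 higher) and 87.6% had both iKO libraries below both controls. The median difference was -12.0 points over the 9 members and -8.63 over all bodies. The mean of the 9 levels was 55.9% ± 1.12 in iKO and 66.8% ± 0.946 in control libraries (SD, n = 2 each). An exact two-sided permutation test of 2 against 2 libraries cannot give a p below 0.33, and gave that value for this mean.

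**Figure D2:**
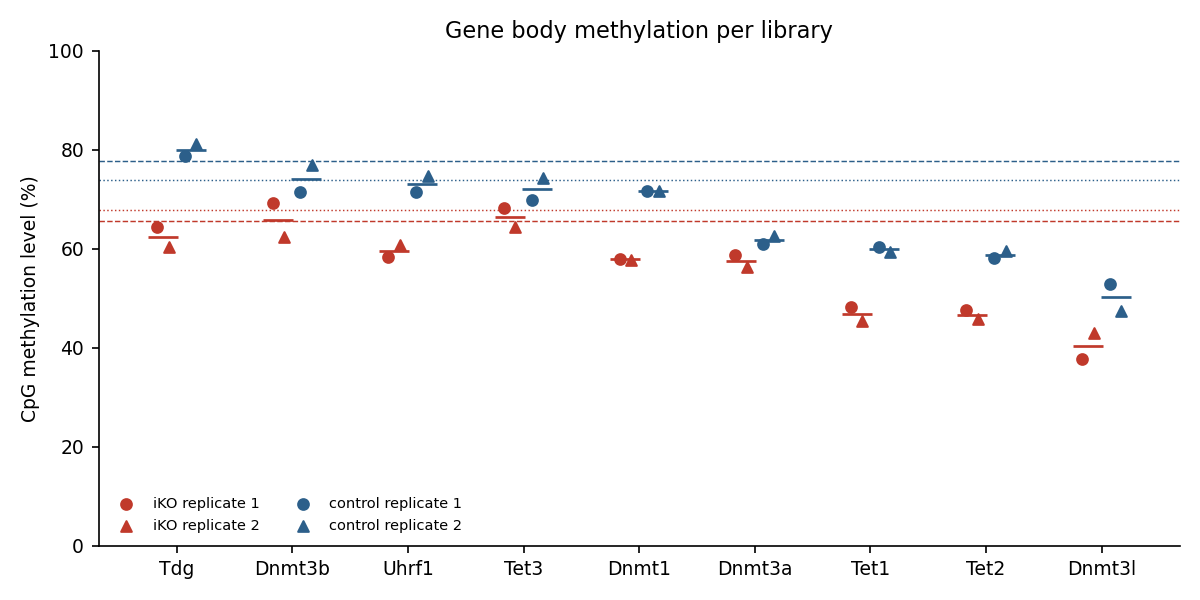
Gene body methylation level (%, vertical axis) of the 9 genes, ordered by their control mean, with a point per library, a bar at each group mean, and lines at the median of all 13869 gene bodies in each library (dotted replicate 1, dashed replicate 2, in the colour of the group). The red points lie below the blue points in all 9 genes, by 17.6 points at Tdg and 4.28 points at Dnmt3a on average.

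The maintenance genes, Dnmt1 and Uhrf1, both fell. Dnmt1 (chr9:20907206-20959888, minus strand, mm10) was at 58.0% and 57.7% in iKO and 71.7% and 71.6% in control libraries over 890 CpGs, a difference of -13.8 points (pooled SD 0.129, n = 2 each) with replicates nearly identical. Uhrf1 (chr17:56303337-56323486, plus strand) was at 58.4% and 60.8% against 71.4% and 74.6% over 257 CpGs, a difference of -13.4 points (pooled SD 2.02). The adjusted p was 0.0024 for Dnmt1 and 0.0115 for Uhrf1 in the limma-moderated model. The Dnmt1 call held under every alternative that gives a p (adjusted p 2.53e-07 to 0.0174), and the Uhrf1 call was lost without iKO replicate 1 or without iKO replicate 2 (0.00221 to 0.101 over the alternatives). Larger decreases than theirs were found in 8.14% and 9.45% of all bodies.

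Of the de novo genes and their partner, Dnmt3a had the smallest decrease of all 9 genes. Dnmt3a (chr12:3801559-3914443, plus strand, 1378 CpGs) was at 58.8% and 56.2% in iKO against 60.9% and 62.6% in controls, and its difference of -4.28 points (pooled SD 1.52) was exceeded by 90.9% of all bodies. Dnmt3b (chr2:153649411-153687730, plus strand, 410 CpGs) was at 69.1% and 62.4% against 71.5% and 76.9%, a difference of -8.43 points (pooled SD 4.34) that is close to the median of all genes. Dnmt3l (chr10:78042287-78063622, plus strand, 243 CpGs) was the least methylated body of the 9, at 37.8% and 43.0% against 52.9% and 47.4%, a difference of -9.79 points (pooled SD 3.79). Their adjusted p-values in the limma-moderated model, 0.0462, 0.045 and 0.0447, lay just under the threshold. The Dnmt3a call was lost without iKO replicate 1, iKO replicate 2 or control replicate 2, with edgeR and with limma on logit levels (0.0149 to 0.369 over the alternatives). The Dnmt3b call was lost without iKO replicate 2 or control replicate 2 and with limma on logit levels (0.00138 to 0.362), and the Dnmt3l call without iKO replicate 1, iKO replicate 2 or control replicate 1 and with limma on logit levels (0.0151 to 0.329). With the replicate number added to the model as a block, the calls of Dnmt3a, Dnmt3b and Dnmt3l were lost as well. The Dnmt3b difference was -5.04 points without iKO replicate 2.

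All 3 TET genes fell. Tet1 (chr10:62804570-62887469, minus strand, 909 CpGs) was at 48.2% and 45.4% in iKO against 60.4% and 59.4% in controls, a difference of -13.2 points (pooled SD 1.48; adjusted p = 0.00254, limma-moderated model). Tet2 (chr3:133463677-133545136, minus strand, 628 CpGs) was at 47.5% and 45.9% against 58.0% and 59.5%, a difference of -12.0 points (pooled SD 1.10; adjusted p = 0.00338 in that model). These were the least methylated bodies after Dnmt3l, and their control libraries overlapped each other. Tet3 (chr6:83362373-83457208, minus strand, 1372 CpGs) was at 68.2% and 64.5% against 69.9% and 74.3%, a difference of -5.77 points (pooled SD 2.88; adjusted p = 0.0353) that 84.2% of all bodies exceeded. The Tet1 call held under every alternative that gives a p (2.48e-07 to 0.0442), and the Tet2 call was lost only with CpGs of at least 5 reads in all 4 libraries (1.4e-05 to 0.309), where its difference was -6.04 points. The Tet3 call was lost without iKO replicate 2 or control replicate 2, with edgeR and with limma on logit levels (0.000177 to 0.227), and its difference was -3.58 points without control replicate 2.

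Tdg, the thymine DNA glycosylase, had the most methylated body in controls and the largest decrease. Its body (chr10:82629814-82650799, plus strand, 248 CpGs) was at 64.4% and 60.3% in iKO against 78.6% and 81.1% in control libraries, a difference of -17.6 points (pooled SD 2.40, n = 2 each; adjusted p = 0.00426, limma-moderated model). Only 2.23% of all bodies had a larger decrease. The call held under every alternative that gives a p (3.68e-05 to 0.0193), and the difference ranged from -19.6 to -15.5 points over them. The last part of the gene record overlaps the neighbouring gene Glt8d2.

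Set in order by their control mean, the bodies ran from Tdg through Dnmt3b, Uhrf1, Tet3, Dnmt1, Dnmt3a, Tet1 and Tet2 to Dnmt3l. The control libraries of neighbours in this order overlapped for Dnmt3b and Uhrf1, Uhrf1 and Tet3, Tet3 and Dnmt1, and Tet1 and Tet2. Within control replicates 1 and 2, Dnmt3b lay 0.07 and 2.27 points above Uhrf1, and Uhrf1 lay 1.51 and 0.35 above Tet3. Tet3 and Dnmt1, and Tet1 and Tet2, changed order between the controls. In the other 4 steps the control libraries did not overlap, and the widest of these was the step from Dnmt1, whose lower control was at 71.6%, to Dnmt3a, whose higher control was at 62.6%.

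To ask whether members departed from the shift of all genes, the median of all gene bodies was subtracted within each library. Those medians were 67.9% and 65.7% in iKO and 74.0% and 77.8% in control libraries. On this relative scale, 5 of 9 genes were lower in both iKO libraries than in both controls, against 17.2% of all bodies: Tdg at -8.43 points (pooled SD 1.17), Dnmt1 at -4.70 (2.16), Uhrf1 at -4.28 (2.34), Tet1 at -4.03 (2.42) and Tet2 at -2.92 (1.22). Tdg moved from above the median gene in controls, by 4.01 ± 0.938 points, to below it in iKO cells, at -4.43 ± 1.35 points (SD, n = 2 each). In 2 of 9 genes the relative level was higher in both iKO libraries, against 26.6% of all bodies, by 4.84 points at Dnmt3a (pooled SD 1.06) and 3.35 at Tet3 (0.82). Dnmt3b (0.69, pooled SD 2.43) and Dnmt3l (-0.66, pooled SD 5.95) overlapped between groups. The mean of the 9 differed by -1.79 points (pooled SD 1.27), by -0.56 without control replicate 1 and -3.03 without control replicate 2. With a library left out, the relative differences stayed at -9.39 to -7.48 points for Tdg, 3.80 to 5.89 for Dnmt3a and 2.59 to 4.12 for Tet3. Those of the 6 others moved further. Dnmt3b and Dnmt3l turned sign, at -1.60 to 2.98 and -5.34 to 4.01. In the other 4 the sign held: without control replicate 1 they were -2.77 at Dnmt1, -1.63 at Tet1 and -1.73 at Tet2, without control replicate 2 -6.43 at Tet1, and at Uhrf1 -1.96 without iKO replicate 1 and -6.60 without iKO replicate 2. None of these relative differences can reach an exact permutation p below 0.33 with 2 against 2 libraries. The members were also not matched to bodies of their own level or number of CpGs, and Tet1, Tet2, Dnmt3a and Dnmt3l lay well below the median body. Over all 1 kb bins the median difference was -10.7 points at levels of 50% to 70% and -7.41 at 70% to 90%. How much of a relative difference goes with level was not tested.

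Among pairs of members, the widest change, picked after the values were seen, was that of Dnmt3a against Tdg. Dnmt3a lay 17.7 and 18.5 points below Tdg in controls but 5.64 and 4.04 points below it in iKO libraries, a change of 13.3 points (pooled SD 0.888, n = 2 each). Tet3 against Tdg changed by 11.8 points (pooled SD 0.968), from 8.75 and 6.85 points below Tdg in controls to 3.80 and 4.18 points above it in iKO. Tet1 and Tet2 kept within 2.37 points of each other in every library, and their pair overlapped between groups. Grouped by role, the maintenance pair Dnmt1 and Uhrf1 differed by -13.6 points (pooled SD 0.963), the de novo pair Dnmt3a and Dnmt3b by -6.36 (2.93, with 63.9% and 59.3% in iKO against 66.2% and 69.8%), and the demethylation genes Tet1, Tet2, Tet3 and Tdg by -12.1 (1.79).

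The 1 kb bins show where along each gene the differences lay. In the quasi-binomial model with limma-moderated dispersion, 0 of 584 member bins were called at an adjusted p under 0.05 (the lowest was 0.0552, in Dnmt1), against 0.104% of 1737159 bins of the autosomes and X. edgeR and limma on logit levels called 0 member bins too, and the bin test, like that of promoters, called none of the few changed windows on simulated data. At an unadjusted p under 0.05 there were 129 member bins, which is 22.1% against 13.4% of all bins. They were 123 lower and 6 higher bins, where 13.2% of all bins were lower and 0.292% higher at this p. The number of CpGs per bin differed too. At mean levels of 70% to 90% the median was 12 in member bins against 8 in all bins, and at 50% to 70% it was 10 against 8. Member bins held fewer at 10% to 30% (11 against 17) and under 10% (34 against 46). How far this moved the shares, here or in 2 kb bins, was not tested. Of the 584 bins, 491 (84.1%) were lower in iKO, against 79.4% of all bins. Both iKO libraries were below both controls in 272 (46.6%, against 40.5% of all bins) and above both in 25 (4.28%, against 4.21%). The share of bins with an unadjusted p under 0.05 was 13 of 30 in Tdg, 26 of 62 in Dnmt1 and 11 of 30 in Dnmt3l, but 13 of 120 in Dnmt3a, 5 of 46 in Dnmt3b and 14 of 103 in Tet3. Uhrf1 had 9 of 31, Tet1 21 of 87 and Tet2 17 of 75.

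Wider bins gave calls. In 2 kb bins, 23 of 316 member bins (7.28%) were called, all lower in iKO, against 2.08% of 1170665 bins. With the 5 kb flanks counted in, there were 6 at Tet1, 4 each at Dnmt1 and Tdg, 3 each at Tet2 and Dnmt3l, 1 each at Dnmt3a, Uhrf1 and Tet3, and 0 at Dnmt3b. The Dnmt3a call, chr12:3796001-3798000, lay upstream of the gene record. So did the largest called decreases at Tet2, chr3:133548001-133550000, and at Dnmt3l, chr10:78038001-78040000, which lies in the neighbouring gene Aire. The largest called decrease in Tdg, at chr10:82644001-82646000, was at 39.3% and 47.7% in iKO against 58.8% and 80.4% in controls (adjusted p = 0.00594, limma-moderated model). That of Dnmt1, at chr9:20908001-20910000 near the 3′ end of the gene, was at 57.8% and 50.9% against 74.8% and 84.2% (adjusted p = 0.00382). On a 1 kb grid shifted by 500 bp, 3 of 585 member bins were called, 1 each in Dnmt1, Tet1 and Tdg, against 0.12% of all. The Dnmt1 bin, chr9:20913501-20914500, was at 36.2% and 42.2% against 70.8% and 70.4%, and the Tdg bin, chr10:82643501-82644500, at 33.0% and 31.4% against 56.0% and 80.7%.

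**Figure D3:**
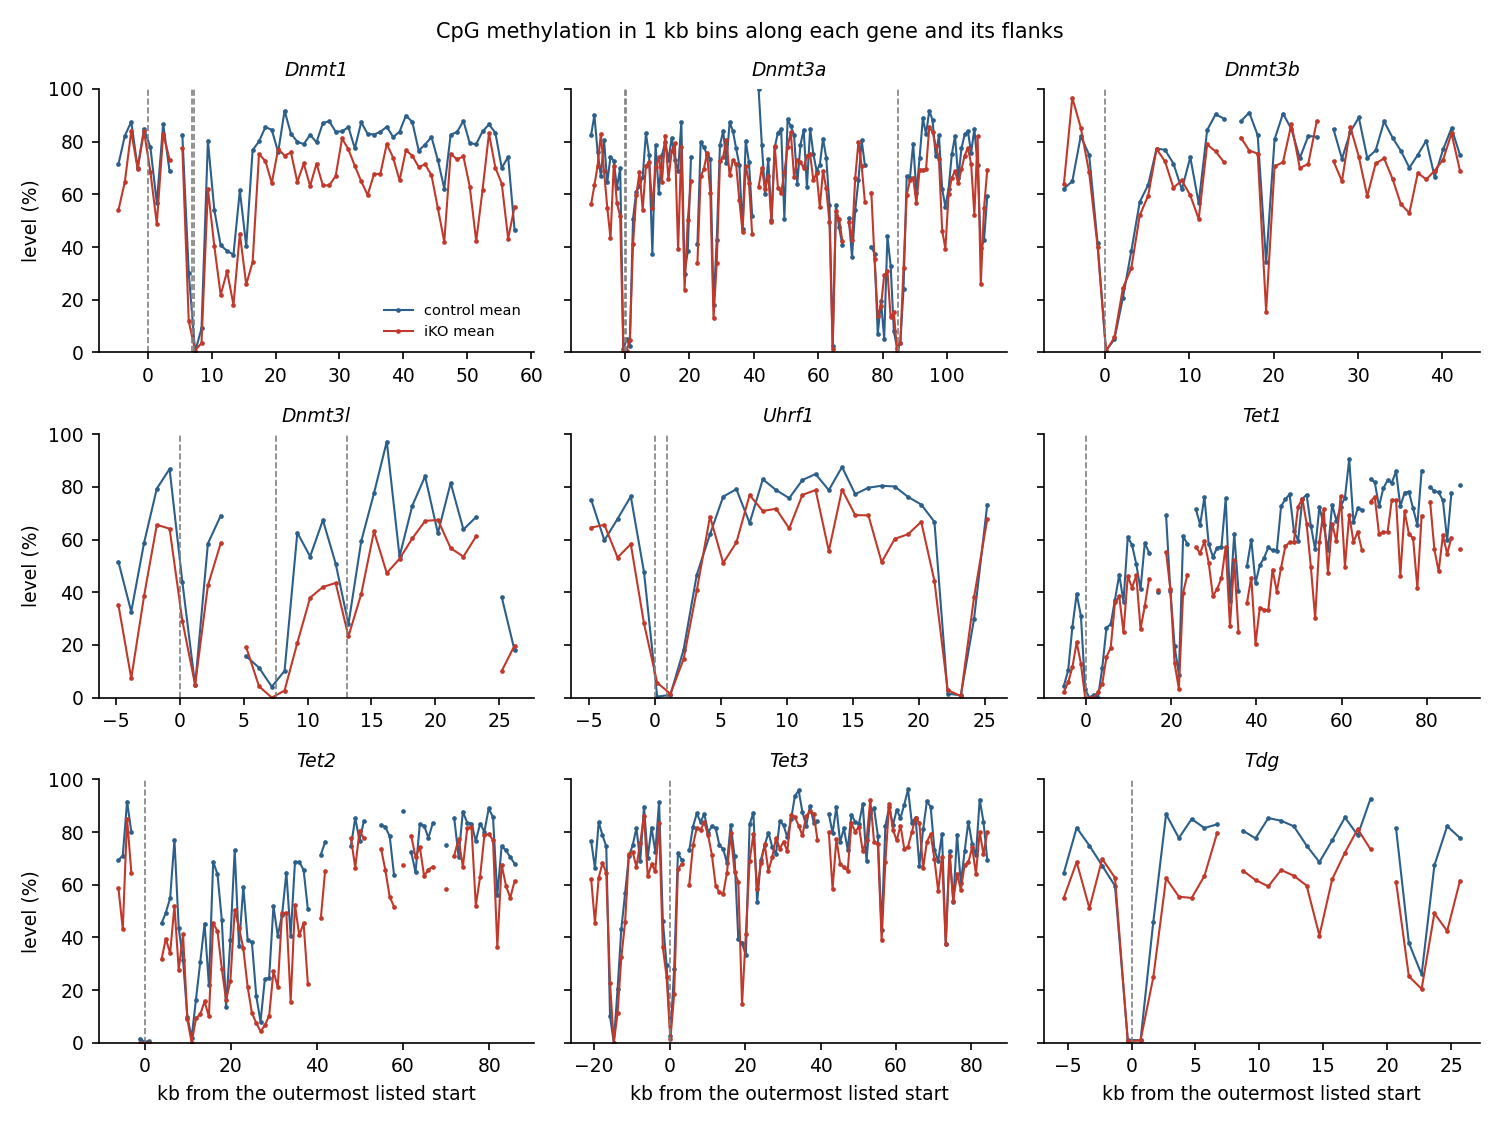
Mean CpG methylation level (%, vertical axis) of the control (blue) and iKO (red) libraries in 1 kb bins along each gene and its flanks, plotted by distance from the outermost listed start in the direction of transcription (kb, horizontal axis), with dashed lines at listed starts and gaps where a bin was not tested. The red line runs below the blue line along most of Tdg and Dnmt1, the lines of Dnmt3a cross repeatedly near its internal start, and both lines meet near 0% at the CpG islands.

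Some CpG-dense bins were at low levels in both groups. The bin with the most CpGs in Tet3, 113 CpGs 14.8 kb upstream of its listed start and inside the gene record, was at 0% in all 4 libraries, from 62 to 114 calls per library, about 1 or fewer per CpG. In Dnmt1, the bin of 64 CpGs at the internal starts was at 0% and 1.41% in iKO and 0% and 0.521% in controls. The Tet1 bin over its start, with 38 CpGs, was at 0% and 0% in iKO and 2.02% and 4.21% in controls, with groups apart. By contrast, a Tet3 bin of 33 CpGs at chr6:83404001-83405000 was at 97.4% and 78.3% in iKO and 88.6% and 91.4% in controls. Some other bins differed widely, in both directions. In Dnmt1 a bin of 14 CpGs at chr9:20943001-20944000 was at 45.8% and 22.7% in iKO against 78.6% and 75.0% in controls. In Dnmt3l a bin of 10 CpGs at chr10:78051001-78052000, 1159 bp from start 2, was at 26.8% and 14.8% against 63.9% and 61.4%. Higher in iKO were a Tet3 bin of 16 CpGs at chr6:83423001-83424000, at 64.1% and 58.1% against 34.2% and 44.8%, and a Dnmt3a bin of 10 CpGs at chr12:3887001-3888000, at 42.3% and 16.3% against 10.5% and 0%. These bins were picked after their values were seen, and their adjusted p-values in the limma-moderated model were over 0.05.

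Intragenic low bins, defined as 1 kb bins inside the gene, over 2 kb from the outermost start and with a mean of the 4 libraries under 50%, numbered 105 of 456 body bins (23.0%, against 6.61% of such bins over all genes). Tet2 had 27, Tet1 26, Dnmt3a 25, Dnmt3l 9, Dnmt1 8, Tet3 7, Dnmt3b 2, Uhrf1 1 and Tdg 0. The cut uses both groups, so a bin can pass through the level of 1 group only. Tet1 chr10:62873001-62874000 passed at means of 34.8% in iKO and 58.7% in controls, and Dnmt3a chr12:3815001-3816000 at 54.9% and 37.5%. Of the 105, 84 were lower in iKO, where 79.3% of the intragenic low bins of all genes were. In 45 (42.9%) both iKO libraries were below both controls, against 43.7% of the 38428 intragenic low bins of all genes, and in 5 (4.76%) both were above, against 4.98%, so these shares were near those of all genes. The median difference of single low bins was also near, at -8.61 points in the members and -8.59 in all genes. In Dnmt3l 6 of its 9 low bins lay within 1 kb of another listed start, in Dnmt1 3 of 8 and in Dnmt3a 3 of 25, and in the TET genes 0. The low Tet3 bins over chr6:83454001-83457000, however, adjoin the 5′ end of the gene record at chr6:83457208, which is not a listed start. They hold 26, 31 and 113 of the 249 CpGs in the low bins of Tet3. Pooled per gene, the mean level of the 8 genes was 25.1% ± 0.299 in iKO and 33.1% ± 1.27 in controls, a difference of -7.94 points (pooled SD 0.924, n = 2 each; exact permutation p = 0.33, the smallest possible).

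Tet1, Tet2 and Dnmt3a held most of the low bins. In Tet1 they were at 29.0% and 25.2% in iKO against 41.5% and 37.9% in controls, a difference of -12.6 points (pooled SD 2.66). In Tet2 they were at 21.9% and 19.3% against 32.1% and 34.6%, a difference of -12.8 points (pooled SD 1.84). Both groups were well apart in these TET genes, and the iKO levels were 68.3% and 61.8% of the control levels. In Dnmt3a the low bins were at 25.3% and 25.9% against 25.7% and 25.8%, a difference of -0.15 points (pooled SD 0.285) with overlapping groups. Of its 25 low bins, 16 were lower in iKO, 4 had both iKO libraries below both controls and 4 had both above, where Tet2 had 16 of 27 below and 0 above and Tet1 12 of 26 below and 1 above. Over all genes, 43.7% of such bins were below and 4.98% above.

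In the remaining genes, Dnmt1 low bins were at 10.9% and 16.8% in iKO against 28.0% and 21.0% in controls (-10.6 points, pooled SD 4.59), and Dnmt3l low bins at 21.6% and 19.9% against 30.6% and 29.0% (-8.99 points, pooled SD 1.18). The groups were apart in both. Tet3 low bins were at 25.9% and 22.7% against 26.1% and 30.3% (-3.92 points, pooled SD 2.62), with iKO replicate 1 and control replicate 1 nearly equal. The Tet3 difference was -1.85 points with control replicate 2 left out, -2.30 with iKO replicate 2 left out and -5.98 with control replicate 1 left out. The 2 low bins of Dnmt3b were at 24.7% and 31.7% against 32.7% and 40.7% (-8.53 points, pooled SD 5.30), from 81 to 120 reads per library, and the difference fell in size to -4.53 with control replicate 2 left out and to -5.04 with iKO replicate 1 left out. The 1 low bin of Uhrf1, from 19 to 30 reads, was at 40% and 41.4% against 40.7% and 52.6% (-6.00 points, pooled SD 5.99), which became -0.05 without control replicate 2 and -11.9 without control replicate 1.

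**Figure D4:**
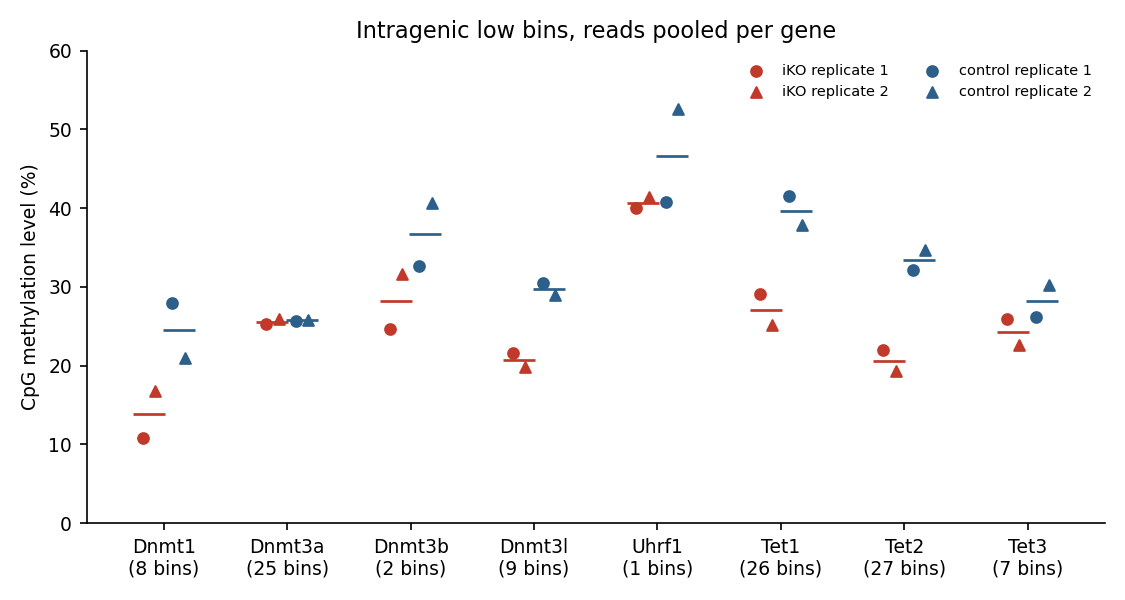
Methylation level (%, vertical axis) of the intragenic low bins pooled per gene (horizontal axis, with the number of bins), with a point per library and a bar at each group mean; Tdg had no such bin. The iKO points of Tet1 and Tet2 lie below both controls by 12.6 and 12.8 points on average, and the 4 points of Dnmt3a lie between 25.3% and 25.9%.

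Low bins often lay next to each other. Counted inside the gene record, the longest unbroken run of 1 kb bins under 50% was 11 kb in Tet2, 10 kb in Tet1 and 10 kb in Dnmt3a, against a median of 2 kb over 16719 genes, and only 0.281% of genes had a longer run than Tet2 and 0.395% a longer one than Tet1 or Dnmt3a. The Tet2 run lay 21.4 to 32.4 kb from the start, away from the promoter island, and was at 22.3% and 20.4% in iKO against 32.9% and 37.3% in controls, a difference of -13.8 points (pooled SD 2.39). The Tet1 run included the promoter island and reached 9.3 kb into the gene. Upstream it went on for 13 kb beyond the record, to 23 kb in all, and 1 kb was cut off in this way at both Dnmt3b and Uhrf1. The part of Tet1 inside the record was at 14.1% and 11.3% against 18.9% and 12.5%, with overlapping groups. The Dnmt3a run, 77.0 to 87.0 kb from the start, holds its internal start 3 and overlaps the long non-coding gene Gm31623, and was at 11.4% and 13.6% against 12.7% and 14.4%, also overlapping. Dnmt3l had a run of 6 kb over its start 2, at 16.4% and 10.5% against 24.0% and 25.2%, a difference of -11.2 points (pooled SD 3.01). Uhrf1 had a run of 4 kb at its island, at 7.63% and 7.93% in iKO against 6.10% and 6.44% in controls with reads pooled, a difference of 1.51 points (pooled SD 0.228). It was the only run of the 9 genes in which both pooled iKO levels lay above both controls. Bin by bin the run was mixed. The difference was 5.28 points at chr17:56303001-56304000, where iKO replicate 1 alone was high (10.5%). In the next bins it was 0.41, -3.57 and -6.00 points, with groups overlapping.

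The size of the difference moved with the level of the bin. In member bins with a mean level under 10% the median difference was -0.94 points (36 bins), from 10% to 30% it was -9.04 (38 bins), from 30% to 50% -13.6 (76 bins), from 50% to 70% -12.1 (174 bins) and from 70% to 90% -8.53 (259 bins). Over all bins of the genome the same classes gave -0.32, -6.05, -11.0, -10.7 and -7.41 points. In both, bins of 30% to 50% differed most and bins under 10% least, and the member medians were the larger in each of these 5 classes. Above 90% there was 1 member bin. The classes use the levels of all 4 libraries, so bins near 0% have little room to differ. By position, the median was -3.12 points around the outermost starts (43 bins), -9.54 in bodies (456), -15.5 in bins across the 3′ edge of a gene record (9), -11.3 in the 5′ flanks (34) and -6.99 in the 3′ flanks (42). Bins across a 5′ edge were counted with the 5′ flanks or the starts.

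**Figure D5:**
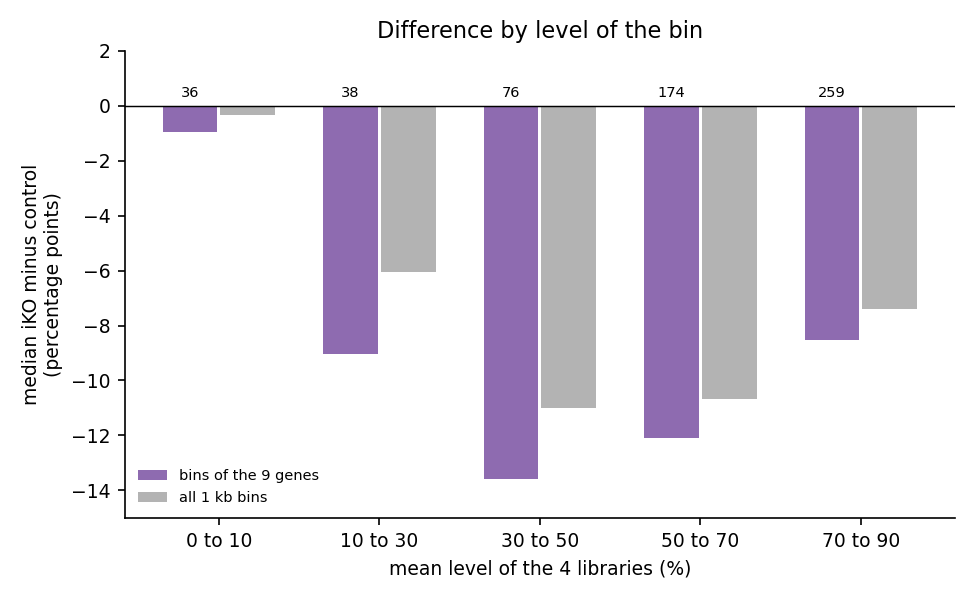
Median iKO minus control difference (percentage points, vertical axis) of 1 kb bins in classes of their mean level over the 4 libraries (%, horizontal axis), for bins of the 9 genes (purple, number of bins above) and all bins of the autosomes and X (grey). Both are near 0 in the class of 0 to 10% and largest in the class of 30 to 50%, at -13.6 and -11.0 points.

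The other genes of the pathway were taken from lists of 44 genes by role, of which 34 had a listed start and 30 a tested body. Of these bodies 16 fell and 0 rose in the limma-moderated model, against 51.2% of all bodies called, 28 had both iKO libraries below both controls, against 87.6% of all, and their median difference was -9.37 points. By role, 3 of 6 readers of methylated DNA, 3 of 6 base excision genes, 7 of 10 chromatin partners and 2 of 4 TET cofactors and regulators fell. So did 1 of the 4 genes listed under methyl donor, which were Mat2a, Mat2b, Ahcy and Trdmt1. The largest decreases were those of Idh2, the mitochondrial isocitrate dehydrogenase (45.5% and 47.2% in iKO against 65.7% and 65.3% in controls, adjusted p = 0.00338), Mat2b, a subunit of methionine adenosyltransferase (47.5% and 46.1% against 62.7% and 65.9%, adjusted p = 0.0106), and Zfp57, a zinc finger protein that keeps methylation at imprinted loci (29.8% and 28.5% against 46.8% and 45.8%, adjusted p = 0.0224). Idh2 fell by 19.1 points (pooled SD 0.894) and thus further than any of the 9 members. Of their 34 promoters 0 were called by the limma-moderated model, edgeR or limma on logit levels, and 4 had an unadjusted p under 0.05, against 9.31% of all.

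By distance between the 4 library levels, the bodies most like the mean of the 9 members were, among 7494 genes with at least 200 body CpGs, Ap3b2 (0.68 points away), Trpv4 (0.704) and Tyro3 (1.08).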

How the data were processed

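Genomic DNA of 4 libraries, 2 Ogt iKO and 2 control, was analysed. BSMAP, Picard and mm10 are named in the submitters' processing notes; versions and filters are not given in the sources used here. The deposited tables give, per the file headers, whole read counts at each CpG: methylated reads, and all reads that show C or T. An expected count, in which the authors corrected that total for variants with reads of the opposite strand, per the file headers, served as an alternative depth. The tables hold 1 row for the 2 strands of a CpG. Reads carry no molecular identifiers, and a read counts at each CpG it covers, so intervals and floors cover counting error only and are too narrow. Tables were matched to samples by the genotype and replicate number in their names.

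Python 3.11.15 with PyArrow 21.0.0, NumPy 2.4.6 and pandas 2.3.3 joined the counts and pooled them over bodies (at least 20 CpGs and 20 reads in every library), promoters (5 and 10) and 1 kb bins (3 and 10). Genes, starts and sequences came from RefSeq tables of GRCm38.p6: of 21627 protein-coding genes on the autosomes and X, 17273 had a listed start. In R 4.3.3, methylated reads out of all reads were fitted by quasi-binomial logistic regression on group alone, over all features of a kind. Pearson dispersions were moderated by limma 3.58.1, with a floor of 1, and p-values of the F tests were adjusted by the Benjamini-Hochberg method. The tests were checked on simulated data, where 100 features of each kind were changed by 10 points and 100 by 20. The body test called most changed bodies, and the tests of promoters and 1 kb bins called no changed window. So few changes make the adjustment stricter than where most features differ. Alternatives were edgeR 4.0.16 (quasi-likelihood), limma on logit levels (0.5 reads added to either side), left-out libraries and the replicate number as a block. Others were further read minimums, exclusion of CpGs deeper than 5 times the median, and other bins and thresholds. With a library left out, its partner's spread was taken from the opposite group. SciPy 1.17.1 gave the exact two-sided permutation tests, with 6 arrangements of labels, and 95% Wilson intervals. A count of 0 was given the level of 3 reads as its limit. The fit over every listed start was added after the data were seen.

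All 9 members are named, with bins at starts, low bins and called bins; low bins are given as counts and pooled levels. Pathway genes are named for the 3 largest called decreases. The members and lists were chosen with earlier results of these data known.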

Additional observations from a re-analysis of the deposited data

How the results depend on the processing

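All 9 member bodies stayed lower in iKO under every alternative run on them. When a library was left out, 4 to 8 of the 9 stayed called, against 5 with limma on logit levels, 5 with a minimum of 10 points and 1 of the 2 that could be tested with CpGs of at least 5 reads in all 4 libraries. Over all bodies the calls were 2684 to 8434 with a library left out, 2872 with the minimum of 10 points and 538 of 1981 with the 5-read CpGs. The replicate numbers did not pair the libraries (correlation of same-numbered deviations -0.064 over bodies). With the replicate block, 6 member bodies, 4244 of all bodies and 0 of all 1 kb bins were called, and the calls of Dnmt3a, Dnmt3b and Dnmt3l were lost.

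Calls among all 1 kb bins were few and unstable: 0 to 0 with a library left out, 4 with CpGs read in all 4 libraries, 0 with the 5-read CpGs, 23 with edgeR, 0 with limma on logit levels, 15 with at least 20 reads and 24326 in 2 kb bins. Member bins called numbered 23 in 2 kb bins and 3 on the shifted grid.

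The promoter differences of 4 genes turned sign, from 4.98 points at Uhrf1, -5.67 at Dnmt3b and under 1 point in size at Tdg and Dnmt3a: Uhrf1 to -1.14 points without iKO replicate 1 (up to 11.1 with another library left out), Tdg to 0.216 without iKO replicate 2, 0.503 without control replicate 1 (down to -1.08 with others left out) and 0.451 in the shorter window of 250 bp before to 50 bp after the start, Dnmt3b to 1.65 without control replicate 1 (down to -13.0 with others left out) and 0.568 in that window, and Dnmt3a to 0.472 with CpGs read in all 4 libraries. The Dnmt3a low bins turned to 0.132 without iKO replicate 1, and lay down to -0.436 with others left out. The cause was not tested. At 3.36 to 4.05 reads per CpG, single promoters and 1 kb bins were measured coarsely.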
